A study of Mus musculus with 6 samples.

Results

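Oxidative phosphorylation genes were followed in the liver of LIGHT Tg mice and wild-type (WT) mice fed a high-fat diet. The genes were taken by symbol: every probe set with a single gene symbol that began with Nduf, Uqcr, Atp5 or Cox4 to Cox8, or that was Sdha, Sdhb, Sdhc, Sdhd or Cycs. This gave 183 probe sets of 91 genes, out of 45037 probe sets on the array that are not controls, and 10 further probe sets with several symbols were left out. By name, 78 probe sets of 36 genes belong to complex I, 9 of 4 genes to complex II, 16 of 8 genes to complex III, 35 of 17 genes to complex IV and 31 of 17 genes to complex V. Cytochrome c (Cycs) had 4 probe sets, and 10 probe sets of 8 Ndufaf genes, which encode assembly factors of complex I and no subunit, came in by their prefix. Ndufa4 was counted with complex I by its name, although its protein is now held to be a part of complex IV.

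The 6 arrays were 3 of LIGHT Tg livers and 3 of WT livers. LIGHT, the product of Tnfsf14, is a ligand of the tumour necrosis factor family. All mice, of both genotypes, ate the high-fat diet TD88137 for 2 weeks and were 4 to 8 weeks old. The source names give the strain B6 for WT and no strain for LIGHT Tg, so genetic background and transgene cannot be told apart. The sources used here do not name the promoter that drives the transgene, and the description field calls all 6 samples wild-type, against the titles and source names that set the groups. No label says whether the arrays are of different animals, so the p-values rest on the spread among these 6 samples, which may be technical. The titles carry numbers whose meaning is not given: LIGHT Tg 1, 2 and 3 are titled 77, 34 and 35, and WT 1, 2 and 3 are titled 78, 30 and 31. The pair titled 77 and 78 and the 4 others are called title sets here, and both sets hold both genotypes.

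Complexes I and II pass electrons from NADH and succinate to ubiquinone, complex III passes them on to cytochrome c, and complex IV passes them to oxygen. Complexes I, III and IV pump protons across the inner mitochondrial membrane, and complex V, the ATP synthase, makes ATP as the protons return. Liver draws on this chain for gluconeogenesis, urea synthesis and the oxidation of fatty acids. Most subunits are encoded in the nucleus, and the rest in mitochondrial DNA, so transcripts of both genomes are needed for a complete chain. Complex II is encoded by nuclear genes alone.

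Promoters of these genes share binding motifs of nuclear respiratory factor 1 (NRF1), of ETS family factors, to which the subunit of nuclear respiratory factor 2 that binds DNA belongs, and of YY1. RefSeq promoter windows of the build GRCm38.p6, from 250 bases before to 50 bases after a gene start, were at hand for 75 of the 91 genes, 80 windows in all. On either strand the NRF1 motif GCGCATGCG stood in 12.5% of these windows (10 of 80), against 1.75% of all 32851 windows. The ETS motif CCGGAAG stood in 23.8% (19 of 80), against 8.86% of all windows. The YY1 motif AANATGGCG stood in 12.5%, against 2.38% of all windows. The motif CAAGGTCA of oestrogen-related receptors stood in 5%, against 1.56% of all, CCAAT in 42.5% against 37.4%, and TATAAA in 11.2% against 13.6%. The ETS and YY1 letters can share bases where one match runs into the other, and a match describes letters only. The 250 bases before the start are printed for 4 genes on which the results below turn, each 5′ to 3′ on the minus strand, with capitals for an NRF1 or ETS match. They are Cycs (chr6:50566570-50566819) with the NRF1 motif, Uqcrh (chr4:116075071-116075320) and Uqcr11 (chr10:80406822-80407071) with the ETS motif, and Ndufa13 (chr8:69902021-69902270), whose printed bases hold none of the NRF1, ETS and YY1 letters. Uqcrh had a lower and Uqcr11 and Ndufa13 a higher signal in LIGHT Tg, so an ETS match is shown for 1 gene of each direction. The Uqcr11 window also holds an NRF1 match that starts at -5 and runs past the printed bases.
Cycs: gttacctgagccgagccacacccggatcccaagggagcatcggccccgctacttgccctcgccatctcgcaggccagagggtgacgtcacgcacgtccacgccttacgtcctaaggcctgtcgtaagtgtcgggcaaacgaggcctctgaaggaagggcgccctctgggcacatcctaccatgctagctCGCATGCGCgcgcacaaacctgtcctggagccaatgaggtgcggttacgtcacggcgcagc
Uqcrh: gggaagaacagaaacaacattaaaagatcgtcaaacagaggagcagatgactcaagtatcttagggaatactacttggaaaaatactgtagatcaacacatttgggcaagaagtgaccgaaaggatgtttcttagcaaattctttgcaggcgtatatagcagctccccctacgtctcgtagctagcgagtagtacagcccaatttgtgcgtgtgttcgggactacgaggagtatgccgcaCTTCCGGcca
Uqcr11: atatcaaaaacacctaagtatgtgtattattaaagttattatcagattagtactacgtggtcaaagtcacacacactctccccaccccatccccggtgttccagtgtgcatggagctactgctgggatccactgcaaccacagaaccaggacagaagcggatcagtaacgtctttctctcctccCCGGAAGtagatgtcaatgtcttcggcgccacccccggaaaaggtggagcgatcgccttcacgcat
Ndufa13: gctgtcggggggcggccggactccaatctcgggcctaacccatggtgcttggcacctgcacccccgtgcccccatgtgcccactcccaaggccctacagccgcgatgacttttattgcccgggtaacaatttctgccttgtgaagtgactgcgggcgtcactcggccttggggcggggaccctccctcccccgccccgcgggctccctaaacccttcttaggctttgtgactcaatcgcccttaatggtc

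The 2 title sets differed widely. The control probe set for the 5′ part of 18S ribosomal RNA gave 196.4 on LIGHT Tg 1 and 243.4 on WT 1, against 17440 to 17950 on the other 4 arrays, and the brightest Xist probe set gave 406.6 on LIGHT Tg 1 and 444 on WT 1, against 7993.5 to 9713.5. A Tnfsf14 probe set (1421588_at) gave 55.69, 19.26 and 26.7 in LIGHT Tg and 7.7, 11.85 and 7.43 in WT, all below the level needed for testing, and a second (1450298_at) gave 2.3, 3.1 and 5.6 in LIGHT Tg and 4.25, 3.75 and 7.83 in WT. Summed signals of 8 hepatocyte markers spanned 136000 to 147000 in LIGHT Tg and 140000 to 147000 in WT. Because each title set holds both genotypes, differences are also given with the title set as a block.

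Most oxidative phosphorylation transcripts had a slightly lower signal in LIGHT Tg liver than in WT liver. Of the 183 probe sets, 158 (of 86 genes) passed the filter of a mean log2 signal of 7.387, and the other 25 did not and were not tested. The difference of log2 signals (LIGHT Tg minus WT) was below 0 for 126 of the 158 (79.7%), against 51.9% of all 22519 probe sets tested. Its median was -0.16, against -0.01 over all probe sets tested. All 3 LIGHT Tg arrays lay below all 3 WT arrays for 38 of the 158 (24.1%, background 9.19%), and above them for 7 (4.43%, background 8.17%). Among probe sets as bright as most of these, with a mean log2 signal of at least 12, the share below 0 was 87% for the 92 oxidative phosphorylation probe sets and 56% for the 1492 others. In that bright range, chosen after the data were seen, LIGHT Tg lay wholly below WT for 27.2% of the 92 and 16.6% of the 1492. The arrays are of whole liver, where fewer cells of a type and less RNA per cell cannot be told apart.

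Single probe sets passed the test in small numbers. In limma without a block, 0 of the 158 passed a false discovery rate of 5% (background 1.17%, 264 of 22519), and the smallest adjusted p was 0.099. An unadjusted p under 0.05 was found for 27 of the 158, against 2473 of all 22519 probe sets tested. With the title set as a block, 14 were lower in LIGHT Tg (8.86%, background 3.21%) and 3 were higher (1.9%, background 3.26%). In the bright range the share of lower calls was 8.7% among these probe sets and 9.85% among the others. From the 4 arrays titled 30 to 35 alone, 2 were lower (background 2.02%) and 1 was higher (background 2.22%), so these counts were near or below the background. Without 1 array, the blocked fit called 2 lower and 1 higher (without LIGHT Tg 1), 5 and 1 (without LIGHT Tg 2), 1 and 0 (without LIGHT Tg 3), 2 and 1 (without WT 1), 1 and 0 (without WT 2) and 2 and 0 (without WT 3). The lower calls in these fits were 0.633% to 3.16% of the 158, against 0.817% to 2.24% of all probe sets tested, which is near the background, and the higher ones 0% to 0.633%, against 1.26% to 2.26%. All 17 called probe sets kept their sign in each of these fits. The fits reuse arrays of the fit that chose the 17, so the kept sign is no separate support. The genotype difference itself differed between the title sets for 0 of the 158 in the limma interaction test (background 0.0666%), where 7 had an unadjusted p under 0.05 on 2 residual degrees of freedom.

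**Figure D1:**
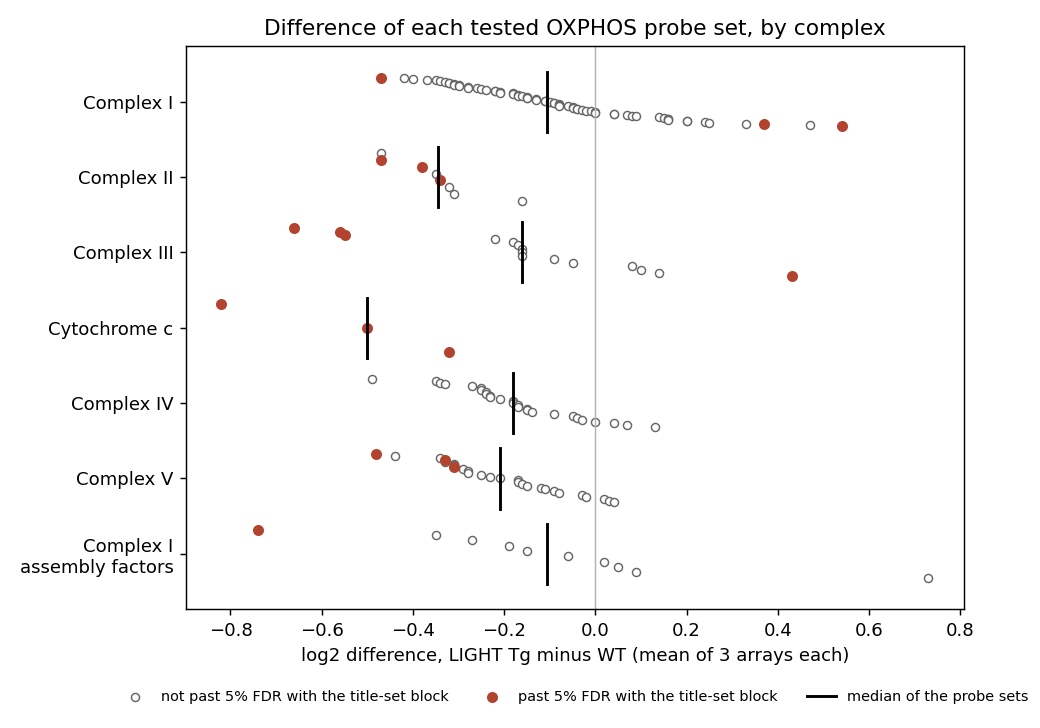
Log2 difference of signal, LIGHT Tg minus WT, of each of the 158 tested probe sets (horizontal axis), in rows by complex, where the small vertical offsets only spread the points. Filled points passed a 5% false discovery rate with the title set as a block, and the black bar is the median of a row's probe sets. Of the 8 complex II probe sets all lie left of 0, and the 3 filled points right of 0 are 2 of complex I and 1 of complex III.

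The direction was shared by complexes I to V, with 1 probe set per gene, the brightest. The median log2 difference was -0.15 over 35 genes of complex I, -0.35 over the 4 of complex II, -0.16 over 8 of complex III, -0.18 over 13 of complex IV and -0.21 over 17 of complex V, against -0.01 over 11563 genes. Below 0 were 27 of 35, 4 of 4, 6 of 8, 11 of 13 and 16 of 17 genes. The 8 Ndufaf assembly factors had a median of -0.02, with 4 of 8 below 0, and that median changed sign with the arrays used (0.07 without LIGHT Tg 3, 0.08 without WT 1, -0.14 without WT 2). Within the pair titled 77 and 78, the medians of complexes I to V were -0.10, -0.42, -0.20, -0.21 and -0.24. Within the arrays titled 30 to 35 they were -0.15, -0.31, -0.13, -0.17 and -0.15. Complex II thus had the lowest median in both title sets, on 4 genes. No complex was tested against another.

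Array by array, the median deviation of complex I genes from their own 6-array mean was -0.08, -0.07 and -0.06 in LIGHT Tg and 0.12, 0.11 and 0.05 in WT on the log2 scale. That is a mean of -0.07 ± 0.0118 in LIGHT Tg and 0.09 ± 0.0406 in WT (SD, n = 3 each). Complex II deviated by -0.18, -0.02 and -0.21 in LIGHT Tg and by 0.22, 0.21 and 0.08 in WT. Complex IV deviated by -0.05, -0.07 and -0.09 in LIGHT Tg and by 0.12, 0.04 and 0.03 in WT. In these 3 complexes the groups did not overlap. The groups met at 0.02 in complex III, where LIGHT Tg spanned -0.06 to 0.02 and WT 0.02 to 0.12, and at 0 in complex V, where LIGHT Tg spanned -0.09 to 0 and WT 0 to 0.2. Over all genes the same deviations spanned -0.01 to 0.01 in LIGHT Tg and 0 to 0.02 in WT.

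**Figure D2:**
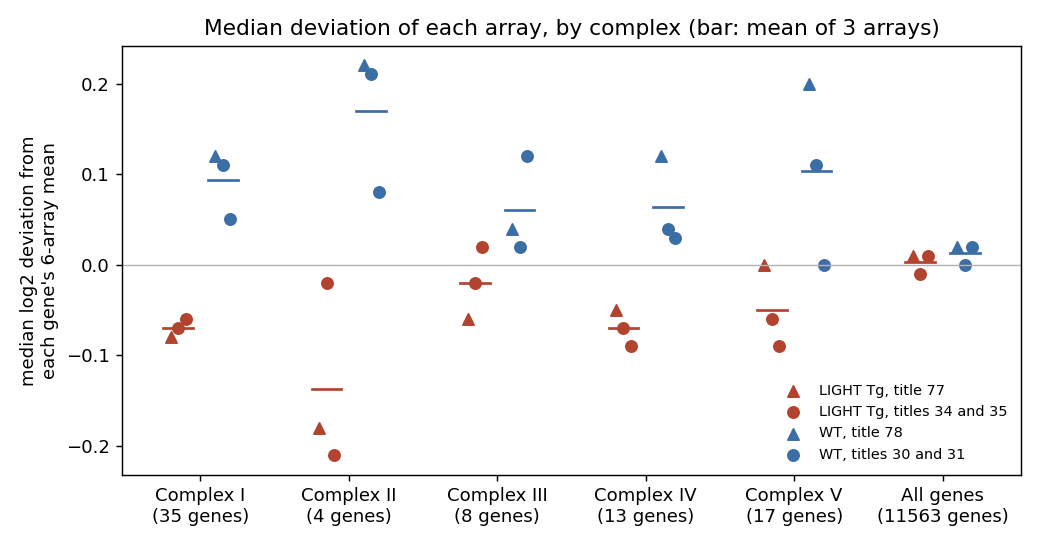
Median log2 deviation of each array from each gene's 6-array mean (vertical axis) for complexes I to V and for all genes, LIGHT Tg in red on the left and WT in blue on the right of each pair, triangles for titles 77 and 78, circles for titles 30 to 35, and bars for the mean of 3 arrays. The groups do not overlap in complexes I, II and IV, and all arrays lie near 0 for all genes.

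As for level, the brightest probe sets of most subunit genes gave signals in the upper part of the array's range. Mean signals of these spanned 3608 to 8092 in complex II, 2776 to 22401 in complex III and 4626 to 14915 in complex V. In complexes I and IV they started lower, at 179 and 170, with maxima of 13395 and 16043. Probe sets differ in how well they bind, so these ranges do not rank transcripts. The dim ends were the probe sets of Ndufb4 in complex I and Cox4i2 in complex IV.

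Cytochrome c, the mobile electron carrier between complexes III and IV, was lower in LIGHT Tg on all 3 of its tested probe sets with the title-set block. Probe set 1422484_at gave 1878.7, 2599.1 and 2685.2 in LIGHT Tg and 3136.3, 5278.2 and 4357.0 in WT. Every LIGHT Tg array lay below every WT array. The log2 difference was -0.82 (standard error 0.108, limma with the block, adjusted p = 0.00777), and -0.82 with a standard error of 0.234 and an adjusted p of 0.212 without the block. It was -0.74 in the pair titled 77 and 78 and -0.86 in the other arrays. Of the 17 called probe sets it alone passed in all 15 alternatives, which are the blocked fit under 8 other settings and without each of 6 arrays, and the arrays titled 30 to 35 alone. Probe set 1422483_a_at gave 3814.4, 3814.2 and 3818.2 in LIGHT Tg and 5815.0, 5642.6 and 4780.6 in WT, also without overlap (-0.50, blocked adjusted p in limma 0.0303). The brightest, 1456071_a_at, gave 9134.9, 11716.7 and 11883.3 in LIGHT Tg and 11079.3, 15709.8 and 14216.3 in WT. Those groups overlapped because the title sets differed in level, and the blocked difference was -0.32 (adjusted p in limma 0.0395). The fourth probe set was below the filter.

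Complex II, the succinate dehydrogenase that joins the citric acid cycle to the chain, had 3 of 8 tested probe sets lower with the block and all 8 differences below 0. The share of lower calls, 37.5%, stood against 3.21% over all probe sets and 9.85% among others in the bright range. These calls came from Sdha and Sdhc alone. Sdha, the flavoprotein subunit that oxidises succinate, gave 7572.4, 7271.7 and 6505.8 in LIGHT Tg and 10179.0, 9201.4 and 8370.6 in WT on probe set 1426688_at. The groups did not overlap, and the log2 difference was -0.38 (limma, adjusted p = 0.0424 with the block and 0.285 without). A further Sdha probe set (1426689_s_at) differed by -0.34 (blocked adjusted p in limma 0.0479), also without overlap. A dim one (1433293_at) differed by -0.47 without overlap and did not pass (blocked adjusted p in limma 0.234). Sdhc, a membrane anchor, gave 2113.8, 3706.6 and 3689.8 in LIGHT Tg and 3240.5, 5051.7 and 4659.7 in WT on 1448630_a_at. Its groups overlapped across title sets and not within them (-0.62 in the pair, -0.39 in the others), and the blocked adjusted p in limma was 0.0347 for -0.47. The dimmer Sdhc probe set 1435986_x_at overlapped between the groups and differed by -0.35 without passing (blocked adjusted p in limma 0.212). Sdhb, the iron-sulfur subunit, gave 6459.5, 7692.9 and 6715.6 in LIGHT Tg and 8563.7, 9070.2 and 8319.1 in WT, without overlap, and its difference of -0.32 did not pass (blocked adjusted p in limma 0.0838). Sdhd, the other anchor, differed by -0.16 and -0.31 on its 2 tested probe sets (blocked adjusted p 0.42 and 0.151). The Sdha calls passed in 5 and 4 of the 15 alternatives and the Sdhc call in 6.

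Complex III had calls in both directions, 3 lower and 1 higher of 15 tested probe sets with the block. These shares, 20% and 6.67%, stood against 3.21% and 3.26% over all probe sets and 9.85% and 6.37% among others in the bright range. Uqcrh, the hinge protein near cytochrome c1, gave 4698.3, 4276.8 and 4623.5 in LIGHT Tg and 5982.4, 6540.7 and 7566.0 in WT on 1453229_s_at. No arrays overlapped, and the log2 difference was -0.56 (limma, adjusted p = 0.0267 with the block and 0.125 without). A second Uqcrh probe set (1452133_at) gave 6030.2, 4686.8 and 4141.2 in LIGHT Tg and 6401.6, 5264.8 and 4818.5 in WT, overlapped between the groups and differed by -0.16 (blocked adjusted p 0.366). Uqcrc2, a core protein, likewise split: 1435757_a_at gave 3714.9, 3019.5 and 2815.5 in LIGHT Tg and 5254.0, 4595.3 and 4128.7 in WT (-0.55, blocked adjusted p in limma 0.0173), and the brighter 1428631_a_at differed by -0.16 (0.294). The small subunit Uqcr10 passed on its dimmest probe set (1434340_at, -0.66, blocked adjusted p in limma 0.021), with 969.4, 990.5 and 859.8 in LIGHT Tg and 1554.9, 1418.1 and 1470.1 in WT, and its 2 brighter probe sets differed by -0.16 and -0.17. Uqcr11, another small subunit, was higher on its probe set, with 8688.1, 8746.4 and 9032.0 in LIGHT Tg and 7301.7, 5708.4 and 6722.8 in WT. All LIGHT Tg arrays were above all WT arrays (0.43, blocked adjusted p in limma 0.0481, 0.216 without the block). Uqcrc1, the other core protein, differed by -0.22 and Uqcrfs1, the Rieske iron-sulfur protein, by -0.18, and neither passed.

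**Figure D3:**
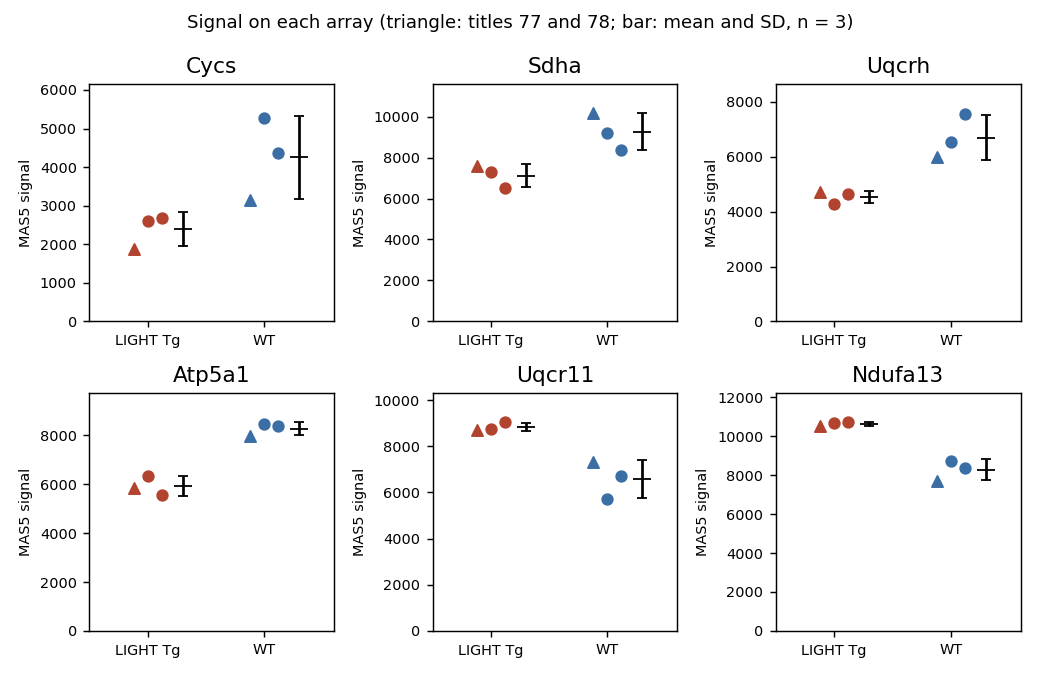
MAS5 signal on each array (vertical axis, from 0) for 1 probe set each of Cycs, Sdha, Uqcrh, Atp5a1, Uqcr11 and Ndufa13, LIGHT Tg in red on the left and WT in blue on the right, with triangles for titles 77 and 78 and black marks for the mean and SD of 3 arrays. In the first 4 genes every LIGHT Tg array is below every WT array, and in Uqcr11 and Ndufa13 every one is above.

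Complex V had 3 of 27 tested probe sets lower with the block. That share of 11.1% stood against 3.21% over all probe sets and 9.85% among others in the bright range. The calls belong to Atp5a1, of the catalytic head, and Atp5pb, of the stalk that holds it. Atp5a1, the alpha subunit of the head, gave 5868.9, 6349.8 and 5557.6 in LIGHT Tg and 7962.3, 8454.2 and 8401.9 in WT on 1449710_s_at. The groups did not overlap, and the difference was -0.48 (limma, adjusted p = 0.018 with the block and 0.111 without). Its brightest probe set, 1423111_at, gave 12072.2, 10343.5 and 9580.7 in LIGHT Tg and 15736.9, 12311.5 and 12138.1 in WT (-0.33, blocked adjusted p in limma 0.034). Atp5pb, subunit b of the peripheral stalk, gave 8409.7, 10974.6 and 9975.1 in LIGHT Tg and 9953.2, 13414.5 and 13117.2 in WT. Its groups overlapped, and the blocked difference of -0.31 just passed (adjusted p in limma 0.0494) and did so in 4 of the 15 alternatives. On their brightest probe sets, other parts of the stalk differed by -0.31 (Atp5o) and -0.28 (Atp5h) without passing. Atp5j2, a subunit of the membrane part, differed by -0.23, also without passing. The other tested probe sets of these genes overlapped between the groups, at -0.03 (Atp5o), -0.11 (Atp5h) and -0.15 and 0.04 (Atp5j2). The 3 genes for the same c subunit of the membrane ring differed by -0.25 (Atp5g1), -0.08 (Atp5g2) and -0.09 (Atp5g3), none past the test. Atp5g1 had 6276.8, 3767.5 and 3822.8 in LIGHT Tg and 6062.4, 5013.4 and 4982.2 in WT. Its log2 difference was 0.05 in the pair, which is 1 array against 1, and -0.40 in the arrays titled 30 to 35, and these did not differ past the test (adjusted interaction p in limma 0.402). Atp5mpl was flat, at 6089.2 to 6214.3 in LIGHT Tg and 5943.3 to 6065.5 in WT (0.03).

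Complex I, the largest, had 1 lower and 2 higher of 68 tested probe sets with the block. These shares, 1.47% and 2.94%, were at or below those over all probe sets (3.21% and 3.26%). Ndufv2, an iron-sulfur subunit of the part that takes electrons from NADH, gave 3433.2, 2655.4 and 2768.5 in LIGHT Tg and 5080.2, 3737.8 and 3498.7 in WT on 1438159_x_at. LIGHT Tg lay wholly below WT (-0.47, blocked adjusted p in limma 0.0306, 0.42 without the block), while its other tested probe sets differed by -0.31 and -0.18 without passing. Ndufa2, an accessory subunit of that same part, was higher, with 4409.6, 5687.2 and 6080.3 in LIGHT Tg and 3154.0, 3956.4 and 3971.9 in WT. Again no arrays overlapped (0.54, adjusted p in limma 0.013 with the block and 0.27 without), and the call passed in 11 of the 15 alternatives. Ndufa13, an accessory subunit in the membrane also known as GRIM-19, gave 10514.8, 10704.8 and 10719.4 in LIGHT Tg and 7681.4, 8755.4 and 8391.0 in WT. This was a gap between 2 tight groups (0.37, adjusted p in limma 0.0269 with the block and 0.195 without). Of membrane-arm subunits, Ndufb9 differed by -0.31 and -0.30 on 2 probe sets and Ndufb10 by -0.34, each with LIGHT Tg wholly below WT and none past the test. Over the 35 genes, the brightest probe sets differed by between -0.37 (Ndufs7, a core iron-sulfur subunit) and 0.54 (Ndufa2). In all, 15 of the 68 probe sets lay wholly below WT (22.1%, background 9.19%) and 4 wholly above (5.88%, background 8.17%).

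Complex IV, cytochrome c oxidase, had no call with or without the block in 27 tested probe sets. Without the block 3 of the 27 had an unadjusted p under 0.05 in limma, against 2473 of all 22519. The difference was below 0 for 24 (88.9%, background 51.9%). LIGHT Tg lay wholly below WT for 6 (22.2%, background 9.19%, and 16.6% among others in the bright range). The liver and tissue isoforms of complex IV can be read side by side, each within its own probe set. Cox4i1, the general form of subunit 4, gave 9678.2, 10744.0 and 10228.9 in LIGHT Tg and 12019.3, 12188.8 and 11874.3 in WT, without overlap (-0.24, blocked adjusted p in limma 0.0885). Cox4i2, the form known from lung, was near the filter with 124.3, 185.3 and 183.8 in LIGHT Tg and 253.8, 128.7 and 174.0 in WT (-0.14), and its sign changed with the arrays used. Cox6a1, the form of liver, gave 16688.8, 15725.5 and 14773.6 in LIGHT Tg and 16497.1, 14645.4 and 14682.0 in WT, with a difference of 0.04. Cox6a2, the form of heart and skeletal muscle, gave 507.1, 315.8 and 250.8 in LIGHT Tg and 409.1, 285.3 and 264.5 in WT (0.13). On their brightest probe sets Cox6b1 differed by -0.21, Cox5b by -0.18 and Cox7a2 by -0.17, each without overlap and none past the test. Cox7a2l, which helps join complexes III and IV, differed by -0.18 on its brightest. The second probe sets of Cox6b1 (-0.03) and Cox7a2 (-0.24) overlapped between the groups. The 5 tested probe sets of Cox5b spanned -0.25 to 0.07, and the 3 of Cox7a2l spanned -0.35 to 0.

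Cox8a, the general form of subunit 8, differed by 1.13 between title sets and by -0.33 between genotypes on the log2 scale, with 6880.8, 3002.2 and 3173.9 in LIGHT Tg and 8416.8, 3903.0 and 3951.6 in WT. Within each set its LIGHT Tg values lay below its WT values, by a log2 difference of -0.29 in the pair and of -0.35 elsewhere (blocked adjusted p in limma 0.0632). Cox8c, known from testis, differed by -0.17 on its brightest probe set. No probe set of Cox6b2, Cox7a1, Cox7b2, Cox8b and Ndufa4l2 passed the filter, so these 5 genes were not tested. They are known mainly from testis (Cox6b2, Cox7b2), from heart, skeletal muscle and brown fat (Cox7a1, Cox8b) and from hypoxic cells (Ndufa4l2). Cox8b gave 58.9, 362.2 and 185.1 in LIGHT Tg and 23.8, 70.4 and 14.0 in WT, a wide spread at a low signal with overlap. Without detection calls none of the 5 can be called absent. Ndufa4, whose protein is set with complex IV, gave 11688.2, 8800.2 and 8443.5 in LIGHT Tg and 13137.7, 10111.2 and 9461.6 in WT (-0.18, blocked adjusted p in limma 0.179).

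The assembly factors of complex I were split, with 6 of 10 probe sets below 0 (60%, background 51.9%). Ndufaf4 was lower on 1435333_at with the block, at 679.9, 821.8 and 717.0 in LIGHT Tg and 1163.0, 1279.5 and 1241.8 in WT. The groups were far apart (-0.74, adjusted p in limma 0.0159 with the block and 0.099 without), while its brighter probe set differed by -0.19 with overlap. Ndufaf2 gave 805.6, 871.6 and 891.8 in LIGHT Tg and 632.6, 361.9 and 597.6 in WT, wholly above (0.73), and did not pass (blocked adjusted p in limma 0.104). Ndufaf3 and Ndufaf6 differed by -0.27 and -0.35 with overlap.

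Between title sets, calls ran in both directions. Comparing titles 77 and 78 with titles 30 to 35, 25 of the 158 probe sets were lower (15.8%, background 15.7%) and 33 higher (20.9%, background 11.7%) past 5% in limma. Probe sets of 1 gene then went apart. Of 46 genes with several tested probe sets, the title-set difference changed sign within 26 and the genotype difference within 9. The median spread within a gene was 0.515 for the title set and 0.16 for the genotype on the log2 scale. In 6 genes (Cox6c, Cox8c, Ndufa7, Ndufb6, Ndufc1 and Ndufs4) 1 probe set passed as higher and another as lower between title sets. For Ndufc1, 1416285_at differed by 0.82 between title sets and 1448284_a_at by -0.66, while their genotype differences were 0.16 and 0.04. A dim Ndufa10 probe set (1418068_at) gave 52.5 on LIGHT Tg 1 and 54.6 on WT 1, against 266.3 to 367.3 on the other 4 arrays.

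**Figure D4:**
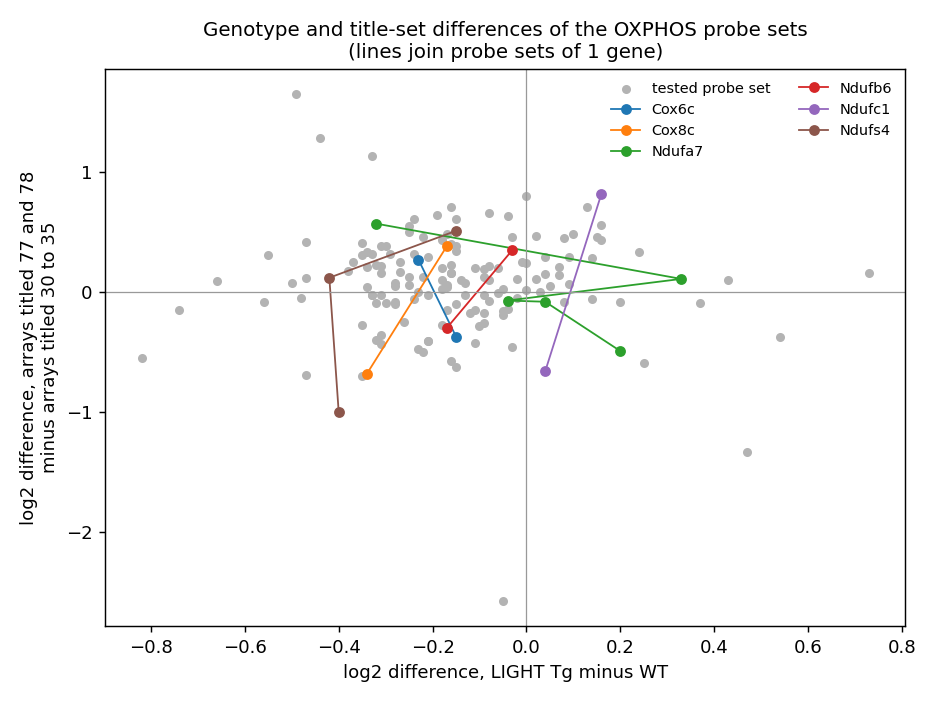
Log2 difference between title sets (titles 77 and 78 minus titles 30 to 35, vertical axis) against the log2 difference LIGHT Tg minus WT (horizontal axis) for the tested probe sets, with lines that join the probe sets of the 6 genes called both ways between title sets. The lines run mostly up and down, and the vertical spread is wider than the horizontal one, with Ndufa10 lowest at -2.57 and Cox8a highest at 1.65.

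Genes next to the chain, each read on its brightest probe set, had calls in both directions with the block. No gene of these lists passed in limma without the block. Of 13 tested citric acid cycle genes, 10 had a difference below 0 (median -0.24 on the log2 scale). Their mean signals were high, from percentile 91.7 (Ogdh) to 98.8 (Suclg2). In the bright range 9.79% of all tested probe sets were lower with the block. Of the 13 genes, 4 were lower with the block and 0 higher (backgrounds 3.21% and 3.26% of all probe sets). These were Fh1, fumarase, at 4674.7, 4488.9 and 4543.1 in LIGHT Tg and 7736.9, 8699.0 and 6347.0 in WT (-0.72, adjusted p in limma 0.0179), Idh3g, of the NAD-linked isocitrate dehydrogenase (-0.72, 0.00746), Dlst, of the oxoglutarate dehydrogenase (-0.59, 0.0174), and Suclg2, of succinyl-CoA ligase (-0.44, 0.0346). Fh1 acts on the product of complex II, and its groups stood well apart. LIGHT Tg lay wholly below WT for 5 of the 13 genes and wholly above for 2 (backgrounds 9.19% and 8.17% of all probe sets). Those 2 were Idh2 and Mdh2, each at 0.44 and not past the test (blocked adjusted p in limma 0.0992 and 0.058). Cyc1, the cytochrome c1 of complex III that the symbol rule leaves out, gave 8402.4, 7153.1 and 6451.4 in LIGHT Tg and 10784.1, 9119.8 and 9295.6 in WT (-0.41, blocked adjusted p in limma 0.0231). It was the 1 call among 13 tested genes of electron entry and other chain parts, of which 12 had a difference below 0 (median -0.13). Pdss2, of ubiquinone synthesis, differed by -0.39 without passing (blocked adjusted p in limma 0.212).

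Among 34 tested other assembly factors of the complexes, none of them an Ndufaf gene, 15 had a difference below 0 (median 0.03), 1 was lower and 3 higher with the block (backgrounds 3.21% and 3.26% of all probe sets). Sco2, which brings copper to complex IV, gave 937.0, 1754.4 and 1118.6 in LIGHT Tg and 1990.7, 3865.2 and 2906.6 in WT (-1.20, adjusted p in limma 0.015). Uqcc2, of complex III assembly, was higher with 3018.3, 2991.2 and 3046.0 in LIGHT Tg and 1842.5, 1918.8 and 1739.0 in WT (0.72, adjusted p in limma 0.00872). Acad9, of complex I assembly, and Tmem70, of complex V assembly, were also higher (0.84 and 0.60, blocked adjusted p in limma 0.0453 and 0.0194). None of 15 regulators of mitochondrial biogenesis passed. The coactivator gene Ppargc1b gave 657.6, 433.5 and 81.7 in LIGHT Tg and 1698.1, 957.2 and 1431.3 in WT (-2.21, blocked adjusted p in limma 0.0762), and Ppargc1a gave 263.2, 320.2 and 271.5 in LIGHT Tg and 335.4, 639.2 and 498.1 in WT (-0.74, 0.0729). Neither overlapped between groups. Of the 15, 11 had a difference below 0 (median -0.27). LIGHT Tg lay wholly below WT for 4 and wholly above for 2 (backgrounds 9.19% and 8.17% of all probe sets). The 2 above were Nrf1 (0.32) and Yy1 (0.33). Of 11 tested carriers and outer-membrane genes none passed (9 below 0, median -0.19), among them Vdac2 at -0.35 and Slc25a5 at -0.16. Of mitochondrially encoded genes 1 had a probe set: ND5, of complex I, gave 17329.8, 21054.5 and 21076.2 in LIGHT Tg and 19379.1, 21215.9 and 21179.2 in WT (-0.06, blocked adjusted p 0.596).

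Some markers of other cells differed between the genotypes, and most did not. Among 8 tested Kupffer cell markers and 8 tested stellate cell and fibroblast markers none passed with the block. The summed signal of 8 endothelial markers spanned 11300 to 14200 in LIGHT Tg and 7670 to 8910 in WT. With the block 3 of the 8 were higher (Vwf, Lyve1 and Stab2, background 3.26% of all probe sets), 2 of them, Vwf and Lyve1, without it as well. Clec4g (0.36), Pecam1 (0.19), Cdh5 (0.12), Oit3 (0.08) and Kdr (-0.09) did not pass. The summed signal of 5 exocrine pancreas markers spanned 1170 to 1410 in LIGHT Tg and 1860 to 1960 in WT, most of it Cela1. Cela1 was lower with the block (-0.59, adjusted p in limma 0.0304), as 1 of 2 tested genes (background 3.21% of all probe sets). The other tested marker of that list, Cela2a, went the other way, with 192.4, 224.6 and 197.6 in LIGHT Tg and 174.4, 91.9 and 183.3 in WT (0.51, not past the test). The untested Cpa1 and Ctrb1 gave 8 to 58.4 in LIGHT Tg and 8.8 to 42 in WT. Prss2, also untested, gave 52.9, 133.4 and 108.9 in LIGHT Tg and 463.7, 247.4 and 43.3 in WT. Kupffer cell markers spanned 20000 to 32300 in LIGHT Tg and 28900 to 32900 in WT, and 0 of 9 striated muscle markers passed the filter. The part of these markers in the lower signals of the chain was not tested.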

How the data were processed

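The deposited values are the authors' MAS5 intensities, 1 linear signal per probe set and array, MAS5 being named per the submitters' processing notes without a version, scaling target or detection call. Total RNA was labelled with biotin, per the labels' protocols. Genes were named from the array's annotation table, and RefSeq changed 0 symbols of these genes. The 106 signals under 1 were raised to 1 before log2, with no further normalization. Probe sets were tested where their mean log2 was at or above the median over all (22519 of 45037, with 64 controls left out). LIGHT Tg was set against WT in limma 3.58.1 (R 4.3.3; eBayes with a variance trend), without a block and with the title set as a block, two-sided, with Benjamini-Hochberg adjustment over all tested probe sets at 5%. The fits were checked on simulated data.

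Named were all probe sets that passed in either fit, the 4 genes per complex with the largest moderated statistic, the tissue isoforms, the Sdh genes and Cycs, and from each neighbouring list the calls and the 2 with the largest statistic. Other genes (Ndufs7, Ndufb4, Ndufa10, Atp5mpl, Nrf1, Yy1, Idh2, Mdh2 and those split between title sets) were chosen after their values were seen. The members, lists and rules were chosen with earlier results of these data known. Alternatives were no filter, a stricter filter (75th percentile), an offset of 37.5, quantile normalization, a common median, no trend, robust fitting, array weights, the arrays titled 30 to 35 alone, the mean of all probe sets of a gene, and each array left out. Each fit alternative together with the block was added after seeing the data. Without counts, depth is not defined, and the number of arrays limits the precision. Plots used Python 3.11.15 and matplotlib 3.10.9.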

Additional observations from a re-analysis of the deposited data

How the results depend on the processing

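With 3 arrays a group, calls of single genes depended on the model. Calls of oxidative phosphorylation probe sets, 0 without a block, were 14 lower and 3 higher with the title-set block, 11 and 3 with array weights, and 2 and 1 from arrays titled 30 to 35 alone; these settings gave 723 and 734, 1055 and 937, and 456 and 500 over all probe sets, against 103 lower and 161 higher without a block. Without the variance trend these were 48 and 100, and leaving out 1 array gave 18 to 114 lower and 25 to 192 higher. Calls of neighbouring list genes were 6 lower and 3 higher, 8 and 3, and 3 and 1 under the same 3 settings, 1 higher with the filter at the 75th percentile and 1 lower with the mean of all probe sets. With the block, no filter left 6 lower and 1 higher, quantile normalization 9 lower, and no trend 3 lower and 0 higher; leaving out 1 array left 1 to 5 lower and 0 to 1 higher. Between title sets, no trend gave 11 lower and 20 higher. Quantile normalization moved the median difference of all these probe sets to -0.11, and that of complex I to -0.11, III to -0.07 and IV to -0.14, with all probe sets at 0; the mean of all probe sets gave -0.11 for complex I. Leaving out 1 array, medians spanned -0.18 to -0.10 (I), -0.39 to -0.24 (II), -0.16 to -0.09 (III), -0.21 to -0.14 (IV) and -0.14 to 0.08 (Ndufaf assembly factors). Single genes that changed sign without 1 array spanned -0.31 to 0.14 (Atp5g2, 0.07 without LIGHT Tg 3), -0.15 to 0.01 (Atp5g3), -0.38 to 0.11 (Cox4i2, 0.05 without LIGHT Tg 1), -0.16 to 0.35 (Cox6a2), -0.71 to 0.04 (Cox8a), -0.11 to 0.03 (ND5) and -0.40 to 0.08 (Ndufaf4, 1427997_at). Cox4i2 was 0.12 with array weights and 0.30 from arrays titled 30 to 35 alone. The causes were not tested. No paired analysis was possible because the labels give no replicate numbers that the groups share, and the replicate numbers used here are listing order. Dim probe sets have no bound here, since no background level is given.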

Other observations

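Nnt encodes the nicotinamide nucleotide transhydrogenase of the inner membrane, which uses the proton gradient that the chain builds, and part of the gene is known to be deleted in the C57BL/6J substrain. It was singled out after its values were seen. Its probe set 1456573_x_at gave 2113.4, 3497.1 and 3373.6 in LIGHT Tg and 1520.9, 5697.6 and 6707.7 in WT. The array titled 78 was the lowest in WT, and LIGHT Tg 1, of the same title set, was the lowest in LIGHT Tg. The groups overlapped. Between title sets the log2 difference was -1.36, lower in the set of these arrays (adjusted p in limma 0.0123). The genotype difference of -0.41 did not pass (adjusted p in limma 0.392 with the block and 0.905 without). The labels used here give B6 and no substrain.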
